A study of Mus musculus with 19 samples.

Results

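Crym, Spock2, Ocm, Traf1, Nell1, Kazald1 and Elavl4 are 7 genes that are seldom discussed in kidney development, out of 20103 genes listed in both deposited expression tables. They were picked by symbol for their strong enrichment in SIX2+ or GFP+ cells of these same data, with no stated threshold. Their levels in those sorts are therefore given as a description, and the 7 genes were tested only in cells that this rule does not name.

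RNA sequencing covered 19 libraries of CFW mouse embryonic kidney cells in 7 groups. On embryonic day E16.5, nephrogenic zone cells (NZC) from kidneys with no allele named were divided by SIX2 into SIX2+ and SIX2- fractions, and other NZC were left unsorted (n = 3 libraries in each group). At the same age, GFP+ and GFP- cells came from Six2TGC/+ kidneys, in which GFP is made under control of Six2 (n = 3 each). At E14.5, Tdt+ and Tdt- cells came from Foxd1Cre;Tdt kidneys, whose red reporter is switched on in cells that have expressed Foxd1 and in their progeny, the stromal lineage (n = 2 each). The Tdt- fraction holds the remaining kidney cells, nephron progenitors among them, and stromal marker RNA was also present there, as given further on. GFP+ and GFP- cells thus both carry Six2TGC, and Tdt+ and Tdt- cells both carry Foxd1Cre. The labels do not tie libraries of a group to separate animals; p-values rest on the spread between these libraries, which may be technical.

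Nephron progenitors sit as a cap around each ureteric tip and give rise to the epithelium of the nephron, from podocyte to distal tubule. SIX2 keeps them from differentiating, and the neighbouring stromal progenitors express FOXD1. The 7 genes encode proteins of unrelated kinds. CRYM, mu-crystallin, binds thyroid hormone in the cytosol. OCM, oncomodulin, is a calcium-binding protein of the parvalbumin family known from outer hair cells of the ear. SPOCK2, NELL1 and KAZALD1 are secreted: SPOCK2 is a testican, a matrix proteoglycan related to SPARC, NELL1 carries EGF-like repeats and promotes bone formation, and KAZALD1 is related to the IGF-binding proteins. TRAF1 is an adaptor of TNF receptor signalling best known in lymphocytes, and ELAVL4, or HuD, is a neuronal RNA-binding protein.

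The genes lie on 6 chromosomes (build mm10, GENCODE M21 gene models). Crym spans chr7:120186380-120202111 on the minus strand, Ocm chr5:144019804-144026670 on the minus strand, Traf1 chr2:34941750-34961772 on the minus strand and Elavl4 chr4:110203722-110351909 on the minus strand. Spock2 spans chr10:60106219-60135198 on the plus strand, where the microRNA gene Mir6906 overlaps it. Kazald1 spans chr19:45075241-45079289 on the plus strand and overlaps a long noncoding RNA gene on that strand. Nell1 spans chr7:49974864-50866608 on the plus strand and overlaps 4933405O20Rik on that strand and the antisense gene Nell1os. Whether reads were counted by strand is not given in the sources used here, so reads of these overlapping genes cannot be told apart from those of Spock2, Kazald1 and Nell1.

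RefSeq promoter windows (GRCm38.p6, the assembly also called mm10) were found for 6 of the 7 genes, 10 windows in all. The 250 bases before the RefSeq start are shown for Traf1, Kazald1 and Nell1. These were picked by their ratios of SIX2+ over GFP+ levels, described further on. Of the 7 genes, Traf1 and Kazald1 had the highest ratio and Nell1 the lowest. Capitals mark CpG dinucleotides, and each sequence reads 5′ to 3′ on the strand of its gene: Traf1 at chr2:34961773-34962022 (minus), Kazald1 at chr19:45074991-45075240 (plus) and Nell1 at chr7:49975100-49975349 (plus).
Traf1: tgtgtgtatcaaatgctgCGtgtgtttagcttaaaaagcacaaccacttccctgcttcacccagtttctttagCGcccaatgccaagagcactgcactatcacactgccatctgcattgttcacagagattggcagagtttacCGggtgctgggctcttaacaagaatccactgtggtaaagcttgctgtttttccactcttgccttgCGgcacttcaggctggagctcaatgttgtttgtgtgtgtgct
Kazald1: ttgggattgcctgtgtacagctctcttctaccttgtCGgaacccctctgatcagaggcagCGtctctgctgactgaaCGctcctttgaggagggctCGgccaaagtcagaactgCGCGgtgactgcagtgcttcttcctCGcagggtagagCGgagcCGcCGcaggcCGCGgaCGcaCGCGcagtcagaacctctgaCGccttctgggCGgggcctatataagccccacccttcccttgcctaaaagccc
Nell1: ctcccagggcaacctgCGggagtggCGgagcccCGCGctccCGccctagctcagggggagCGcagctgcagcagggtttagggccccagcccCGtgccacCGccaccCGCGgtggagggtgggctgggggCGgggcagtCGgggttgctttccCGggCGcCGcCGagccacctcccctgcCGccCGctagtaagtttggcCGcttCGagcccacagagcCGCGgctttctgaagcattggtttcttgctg

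The stretches shown hold 4 CpGs for Traf1, 17 for Kazald1 and 22 for Nell1. Over the whole windows of 300 bases, which reach 50 bases past the start, the counts were 28 for Nell1, 23 for the first of 4 Elavl4 windows, 19 for the first of both Kazald1 windows, 10 for Spock2, 4 for Traf1 and 1 for Ocm. All 32851 windows of the table had a median of 7 CpGs (quartiles 3 and 20). Ocm and Nell1, whose patterns of levels lay close together as given further on, thus had a CpG-poor and a CpG-rich window. The Ocm window, chr5:144050560-144050859, lies upstream of the GENCODE gene model. The Nell1 window lies inside the GENCODE model of Nell1, which starts at chr7:49974864. On both strands, the SIX2-type motif TCANGTTTC (1.08% of all windows), the HOX-PBX motif TGATTTAT (0.977%) and TATAAA (13.6%) had no match in the 10 windows. The GC box GGGCGG (35.7% of all windows) had 3 matches in the Nell1 window and 1 in each Kazald1 window. A match is a string of letters, and its absence says only that these letters are not in that window.

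The deposited values have the properties of RPKM, read numbers scaled by gene length and by library depth, so levels can be set side by side between genes. Six2 itself averaged 351 ± 93 RPKM in SIX2+ and 19.6 ± 23.6 RPKM in SIX2- libraries (SD, n = 3 each). It averaged 335 ± 20 RPKM in GFP+ and 7.45 ± 8.08 RPKM in GFP- libraries (SD, n = 3 each). The third libraries of both negative fractions were the highest for Six2, at 46.8 RPKM in SIX2- and 16.8 RPKM in GFP-. From the steps between low values, depth was roughly 26.0 to 45.5 M reads in the E16.5 libraries other than NZC 2, which had about 3.08 M. NZC 2 also stood apart with a median of 172 RPKM over histone genes, against 0.588 to 2.05 RPKM in the other libraries. In bulk samples, fewer cells of a type and less RNA per cell cannot be told apart.

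Crym was the most abundant of the 7 in both positive fractions. It measured 257, 188 and 170 RPKM in SIX2+ libraries, against 4.76, 4.36 and 15.05 RPKM in SIX2- libraries. In the reporter sort it measured 278, 364 and 208 RPKM in GFP+ libraries, against 5.74, 5.06 and 8.84 RPKM in GFP- libraries. The fractions did not overlap in either sort, and the ratio of means was 25.4 for SIX2+ over SIX2- and 43.3 for GFP+ over GFP-. On the log2(RPKM + 1) scale, its difference ranked 3rd highest of 12798 genes between SIX2+ and SIX2- and 2nd highest between GFP+ and GFP-.

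Ocm, the other cytosolic binding protein, was less abundant than Crym and nearly absent from the negative fractions. It measured 21.6, 15.5 and 19.6 RPKM in SIX2+ libraries, against 0.103, 0.126 and 0.909 RPKM in SIX2- libraries. The low SIX2- values stand for roughly 2, 4 and 27 reads. In the reporter sort it measured 20.5, 24.6 and 11.8 RPKM in GFP+ libraries, against 0.113, 0.214 and 0.675 RPKM in GFP- libraries. The ratios of means, 49.9 for SIX2+ over SIX2- and 56.8 for GFP+ over GFP-, were the highest of the 7 genes in both sorts. The mean levels of the positive fractions, 18.9 ± 3.1 RPKM in SIX2+ and 19.0 ± 6.5 RPKM in GFP+ libraries (SD, n = 3 each), were the closest of any member.

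Among the secreted proteins, Spock2 was the most abundant. It measured 97.2, 141 and 209 RPKM in SIX2+ libraries, against 3.58, 5.74 and 25.04 RPKM in SIX2- libraries. It measured 171, 143 and 190 RPKM in GFP+ libraries, against 6.13, 4.61 and 12.3 RPKM in GFP- libraries. Both sorts separated without overlap, with ratios of means of 13.02 in the SIX2 sort and 21.9 in the GFP sort. The third library was the highest in all 4 fractions.

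Nell1 had the smallest spread between libraries in proportion to its mean, in SIX2+ and in GFP+ cells. It measured 31.2, 35.4 and 38.0 RPKM in SIX2+ libraries, against 1.74, 2.74 and 3.63 RPKM in SIX2- libraries. It measured 61.7, 63.2 and 68.3 RPKM in GFP+ libraries, against 2.03, 1.95 and 2.29 RPKM in GFP- libraries. The ratio of means was 12.9 in the SIX2 sort and 30.8 in the GFP sort, the negative fractions lying close together.

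Kazald1 was less abundant. It measured 13.5, 16.3 and 18.0 RPKM in SIX2+ libraries, against 0.877, 1.66 and 2.80 RPKM in SIX2- libraries. It measured 3.59, 5.50 and 6.003 RPKM in GFP+ libraries, against 0.241, 0.505 and 0.249 RPKM in GFP- libraries. The groups did not overlap, with ratios of means of 8.95 in the SIX2 sort and 15.2 in the GFP sort, so that its level was lower in both reporter fractions than in the corresponding antibody fractions.

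Traf1, the signalling adaptor, measured 21.3, 25.2 and 43.7 RPKM in SIX2+ libraries, against 0.586, 0.526 and 2.85 RPKM in SIX2- libraries. It measured 3.26, 7.26 and 5.61 RPKM in GFP+ libraries, against 0.274, 0.435 and 0.853 RPKM in GFP- libraries. Its ratio of means was 22.8 in the SIX2 sort and 10.3 in the GFP sort. Leukocyte markers ran the other way: the summed level of 12 leukocyte markers was 1.19 to 12.0 RPKM in SIX2+ libraries, against 93.8 to 133 RPKM in SIX2- libraries, where Traf1 was low. In the reporter sort that sum was 0.343 to 5.82 RPKM in GFP+ libraries, against 93.3 to 136 RPKM in GFP- libraries. Of the 12 markers, 8 were under 1 RPKM in every SIX2+ library and 11 in every GFP+ library. The part of leukocytes in the Traf1 values was not tested.

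Elavl4, the RNA-binding protein, was the least abundant of the 7 in both positive fractions. It measured 8.36, 9.07 and 6.19 RPKM in SIX2+ libraries, against 0.615, 0.437 and 1.17 RPKM in SIX2- libraries. It measured 4.86, 3.29 and 3.37 RPKM in GFP+ libraries, against 1.10, 0.350 and 0.332 RPKM in GFP- libraries. The ratio of means was 10.6 in the SIX2 sort and 6.47 in the GFP sort. Most neural and glial markers were low in these cells: 12 of 16 were under 1 RPKM in every SIX2+ library, and 12 of 16 in every GFP+ library. The summed level of the 16 markers was 16.2 to 20.3 RPKM in SIX2+ libraries, against 9.60 to 35.3 RPKM in SIX2- libraries. In the reporter sort it was 10.7 to 17.3 RPKM in GFP+ libraries, against 11.7 to 110 RPKM in GFP- libraries, and the highest GFP- sum belonged to the first GFP- library, which also had the highest Elavl4 of that fraction. The marker Dcx, a microtubule protein of young neurons, was the largest contributor in the positive fractions, at 7.19 ± 0.97 RPKM in SIX2+ against 0.595 ± 0.204 RPKM in SIX2- libraries (SD, n = 3 each; +2.36 ± 0.28 log2, limma adjusted p = 2.04e-05). The part of neural cells in the Elavl4 values was not tested.

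**Figure D1:**
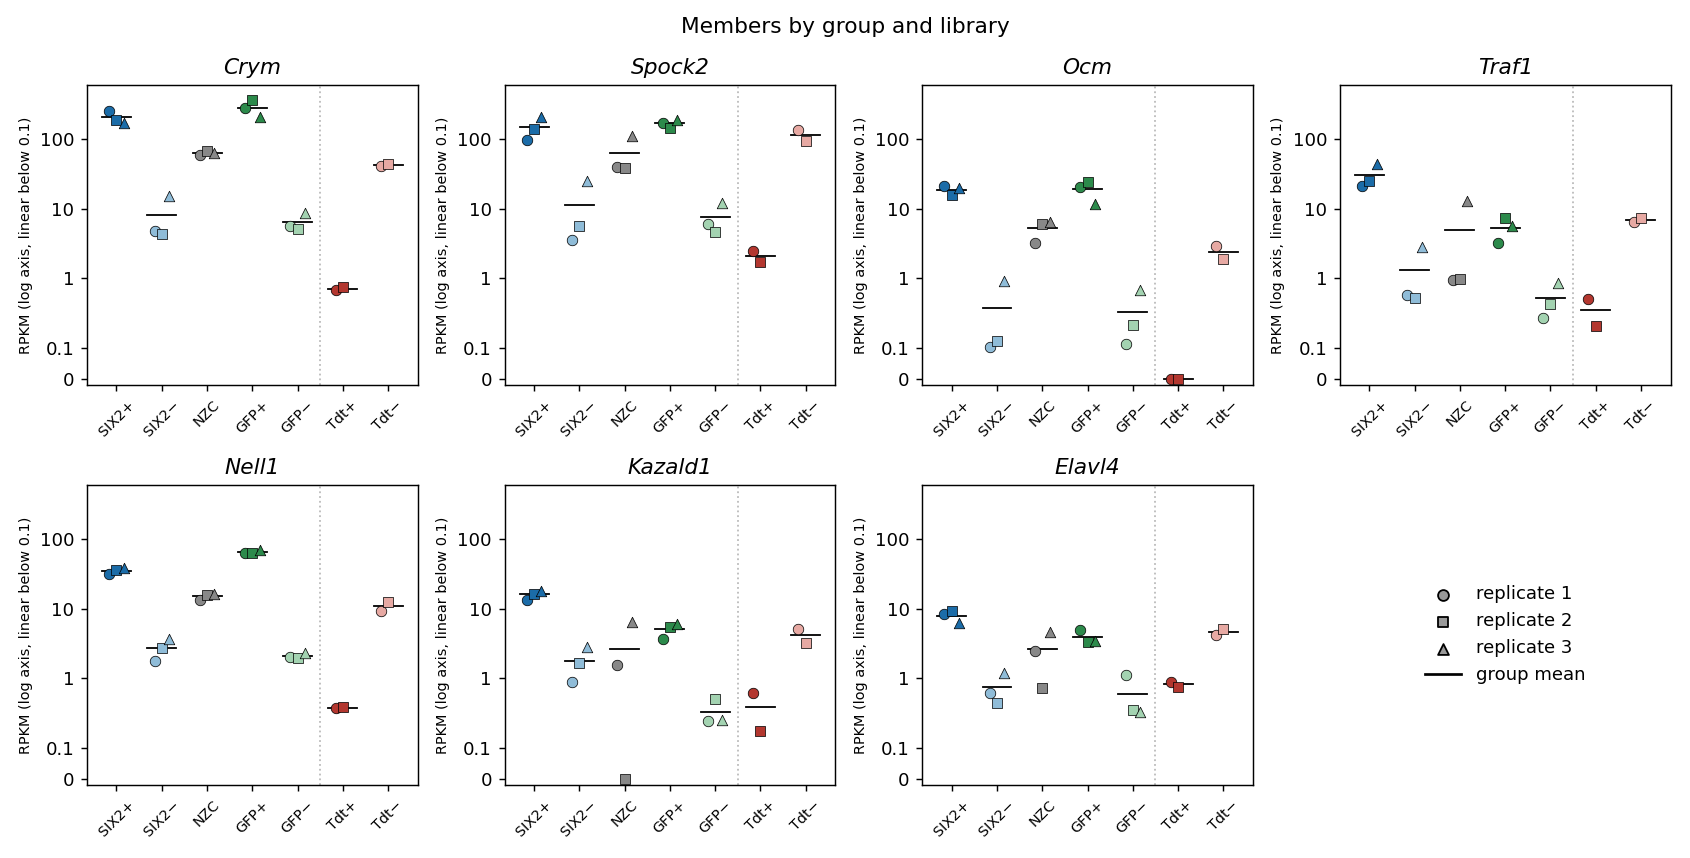
RPKM of each gene (vertical axis, logarithmic above 0.1) in each of the 19 libraries by group, with the group mean as a line; the dotted line parts the E16.5 table from the separately normalised E14.5 table. SIX2+ and GFP+ libraries lie above their negative fractions for all 7 genes, and Tdt+ libraries lie below Tdt- libraries.

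By counts, 7 of 7 genes had no overlap between SIX2+ and SIX2- libraries, where 22.5% of 12798 genes tested were higher in SIX2+ without overlap. Likewise 7 of 7 had none between GFP+ and GFP- libraries, where the share was 28.7%. The choice of the genes fixes these counts. The order of levels in SIX2+ libraries was Crym, Spock2, Nell1, Traf1, Ocm, Kazald1 and Elavl4, where neighbours overlapped except Spock2 with Nell1 and Kazald1 with Elavl4. In GFP+ libraries it was Crym, Spock2, Nell1, Ocm, Traf1, Kazald1 and Elavl4, and there Traf1 overlapped with Kazald1 and Kazald1 with Elavl4, while the other neighbours did not overlap.

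The residual signal in the negative fractions was largest in the third pair of libraries. In SIX2- 3, all 7 genes reached their highest SIX2- value, 4.64% to 18.9% of the SIX2+ 3 level, and Six2 stood at 10.2%. In SIX2- 1 the 7 genes were at 0.477% to 7.36% of SIX2+ 1, with Six2 at 1.47%. In GFP- 3, 5 of the 7 genes reached their highest GFP- value; the exceptions were Kazald1, highest in GFP- 2, and Elavl4, highest in GFP- 1. Nell1 in the GFP sort kept nearly the same share in each pair, with 3.29%, 3.09% and 3.36% of GFP+ found in GFP-, while Six2 had 0.865%, 0.828% and 4.85%. The part of SIX2-expressing cells in the negative fractions was not tested.

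The 7 genes differed in how the positive fractions of both sorts compared, a comparison added after the values were seen and given with no test. Traf1 averaged 30.1 ± 12.0 RPKM in SIX2+ and 5.38 ± 2.01 RPKM in GFP+ libraries (SD, n = 3 each), a ratio of 5.59. Kazald1 averaged 15.9 ± 2.3 RPKM in SIX2+ and 5.03 ± 1.27 RPKM in GFP+ libraries, a ratio of 3.16. Elavl4 averaged 7.87 ± 1.502 RPKM in SIX2+ and 3.84 ± 0.88 RPKM in GFP+ libraries, a ratio of 2.05. For these 3 genes every SIX2+ library lay above every GFP+ library, as for 13.8% of all genes tested. Nell1 went the other way, at 34.9 ± 3.4 RPKM in SIX2+ and 64.4 ± 3.4 RPKM in GFP+ libraries, and every SIX2+ library lay below every GFP+ library, as for 13.1% of genes tested. Crym, Spock2 and Ocm overlapped, with ratios of 0.722, 0.887 and 0.996, and Six2 itself had a ratio of 1.05.

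The summed level of 14 markers of early differentiating nephrons was 169 to 216 RPKM in SIX2+ and 246 to 270 RPKM in GFP+ libraries. The summed level of 16 stromal markers was 274 to 337 RPKM in SIX2+ and 442 to 498 RPKM in GFP+ libraries. In the direction of Traf1, Kazald1 and Elavl4, the summed level of 25 nephron progenitor markers was 1645 to 1908 RPKM in SIX2+ and 1061 to 1328 RPKM in GFP+ libraries, and that of 12 ureteric markers was 39.5 to 52.7 RPKM in SIX2+ and 26.5 to 30.4 RPKM in GFP+ libraries. Erythroid and tubule sums were also lower in SIX2+ without overlap, and the sums of the 5 other cell type lists overlapped. The part of these cells in the difference was not tested. Staining against reporter, the Six2TGC genotype and tissue taken go with the sort, and their effects cannot be told apart. Which libraries had which RNA kit is not stated.

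**Figure D2:**
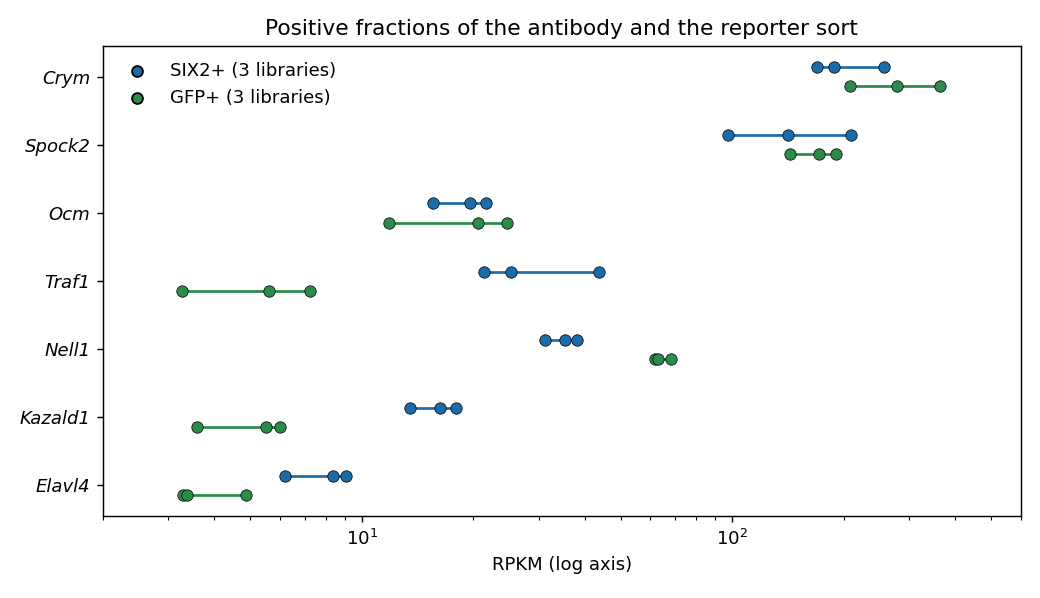
RPKM (horizontal axis, logarithmic) of each gene in the 3 SIX2+ and the 3 GFP+ libraries, with a line over the range of each fraction. Traf1, Kazald1 and Elavl4 are higher in SIX2+ and Nell1 is lower in SIX2+, without overlap, while the ranges of Crym, Spock2 and Ocm overlap.

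In unsorted NZC, Nell1 held nearly the same share of its SIX2+ level, 42.4%, 43.7% and 42.9% of the SIX2+ library of the same number. Whether NZC and SIX2+ libraries of the same number belong together was not tested. Six2 had 21.7%, 23.1% and 36.4%, and Crym had 22.8%, 36.1% and 37.4%. Spock2 had 40.4%, 27.6% and 53.0%, and Ocm had 15.01%, 39.4% and 32.6%. These 4 members were thus present in each unsorted library at a sizeable part of the sorted level.

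Traf1, Kazald1 and Elavl4 varied far more among unsorted libraries. Traf1 had 4.45%, 3.84% and 29.7% of its SIX2+ level, with 0.949, 0.969 and 12.96 RPKM in NZC 1, 2 and 3. Kazald1 had 1.54 RPKM in NZC 1, was listed at 0 in NZC 2 and had 6.45 RPKM in NZC 3. Elavl4 had 2.43, 0.717 and 4.596 RPKM. NZC 3 was the highest for 6 of the 7 genes, Crym being the exception, and it was also the highest for Six2, at 166 RPKM against 65.2 and 68.1 RPKM in NZC 1 and 2. NZC 2 is the shallow library named above. Without it, Traf1 still differed between NZC 1 and NZC 3.

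**Figure D3:**
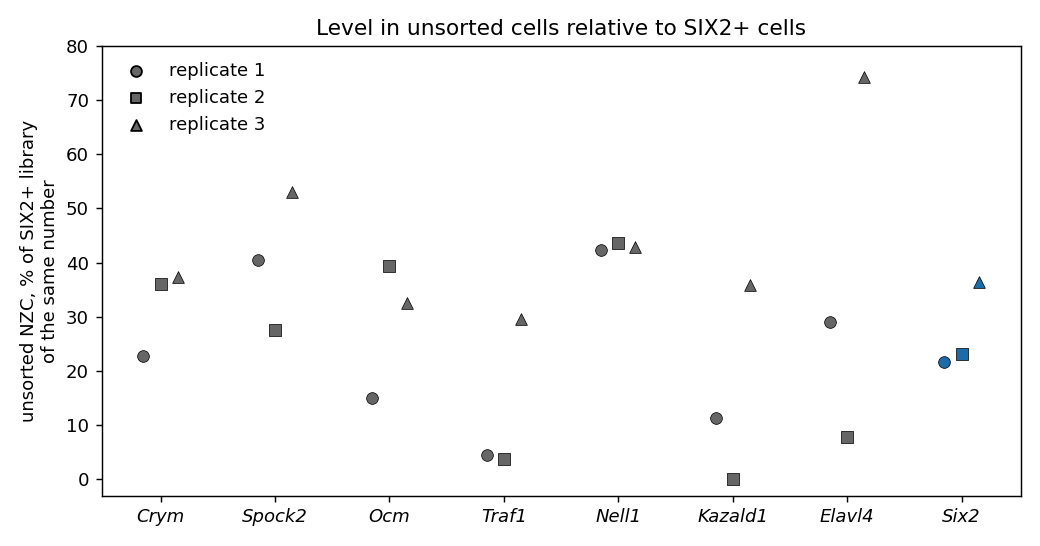
Level in each unsorted NZC library as a percentage of the SIX2+ library of the same number (vertical axis) for the 7 genes and for Six2. Nell1 lies at 42.4% to 43.7% for all 3 library numbers, while Traf1 runs from 3.84% to 29.7% and Elavl4 from 7.91% to 74.3%.

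The rule that picked the genes does not name the E14.5 libraries, though earlier results of these data were known. The question there was whether the 7 genes were low in the stromal lineage. Six2 and Foxd1 went with the labels. Six2 measured 0.650 and 2.14 RPKM in Tdt+ libraries, against 117 and 96.6 RPKM in Tdt- libraries. Foxd1 measured 205 and 102 RPKM in Tdt+ libraries, against 29.9 and 25.2 RPKM in Tdt- libraries. Its difference was +2.35 ± 0.34 log2 (limma adjusted p = 0.00575), a call lost with no filter (limma adjusted p = 0.0917). The summed level of 16 stromal markers overlapped, at 3141 to 3866 RPKM in Tdt+ and 2971 to 3940 RPKM in Tdt- libraries. Of the 16, 4 were called higher in Tdt+, Foxd1 among them, and 2 lower, Lum and Dcn. Stromal marker RNA was thus not confined to the Tdt+ fraction. The Tdt+ libraries were shallower, at roughly 9.43 and 8.40 M reads, against 30.4 and 26.3 M reads in Tdt- libraries. Over all genes, limma called 1043 of 12364 (8.44%), with 151 higher and 892 lower in Tdt+. The higher genes are 1.22% and the lower genes 7.21% of those tested. With quantile normalisation the split was 240 higher and 485 lower. Leaving out a library sets 1 library against 2, the lone one being assumed to vary like the other group. The count was then 3378 without Tdt+ 1, 1298 without Tdt+ 2, 298 without Tdt- 1 and 276 without Tdt- 2, and calls given below as lost without a library rest on such fits.

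Crym fell to 0.672 and 0.756 RPKM in Tdt+ libraries, against 40.7 and 43.3 RPKM in Tdt- libraries. This was 58.9-fold lower by the ratio of means and -4.65 ± 0.24 on the log2(RPKM + 1) scale (SE, limma adjusted p = 0.000117). Every member but Spock2 passed the filter for this fit (1 RPKM in at least 2 libraries) through the Tdt- libraries alone. The p-values of those members are therefore not taken as support, and those with no filter are given further on. Spock2 fell to 2.50 and 1.73 RPKM in Tdt+ libraries, against 133 and 93.1 RPKM in Tdt- libraries, which was 53.5-fold lower (-5.18 ± 0.27 log2, limma adjusted p = 0.000117). These differences ranked 8th and 4th from the lowest of all genes tested, for Crym and Spock2 in that order. Spock2 was the only member detected at 1 RPKM or more in both Tdt+ libraries, and the most abundant of the 7 in Tdt- cells.

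Nell1 measured 0.375 and 0.380 RPKM in Tdt+ libraries, against 9.11 and 12.6 RPKM in Tdt- libraries, and fell by 3.09 on the log2 scale (SE 0.26, limma adjusted p = 0.000781). Traf1 measured 0.499 and 0.204 RPKM in Tdt+ libraries, against 6.46 and 7.32 RPKM in Tdt- libraries (-2.55 ± 0.25 log2, limma adjusted p = 0.00145). Kazald1 measured 0.611 and 0.172 RPKM in Tdt+ libraries, against 5.09 and 3.18 RPKM in Tdt- libraries (-1.88 ± 0.29 log2, limma adjusted p = 0.00773). Each of these 3 genes was under 1 RPKM in the stromal lineage.

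Elavl4 showed the smallest ratio, 5.62, with 0.893 and 0.740 RPKM in Tdt+ libraries, against 4.12 and 5.06 RPKM in Tdt- libraries (-1.62 ± 0.24 log2, limma adjusted p = 0.00675). Ocm was listed at 0 in both Tdt+ libraries, against 2.94 and 1.90 RPKM in Tdt- libraries (limma adjusted p = 0.00519). A single read of Ocm was worth about 0.145 and 0.162 RPKM in the Tdt+ libraries, so the Tdt- levels stood well above that step and no fold is given. Tdt+ and Tdt- libraries did not overlap for any of the 7 genes, as for 30.9% of all genes tested in the lower direction.

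All of the genes but Spock2 passed the filter (1 RPKM in at least 2 libraries) through the Tdt- libraries alone, so they had to differ once they were tested, and no count of calls over the 7 genes is drawn from this fit. With no filter, the limma adjusted p was 0.0492 for Crym, Spock2 and Nell1 and 0.0501 for Traf1. It was 0.0539 for Ocm, 0.0694 for Elavl4 and 0.0904 for Kazald1. These were the highest p of each gene under any alternative in which it was tested. The calls of Traf1, Ocm, Elavl4 and Kazald1 thus end without the filter, at the same log2 differences.

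**Figure D4:**
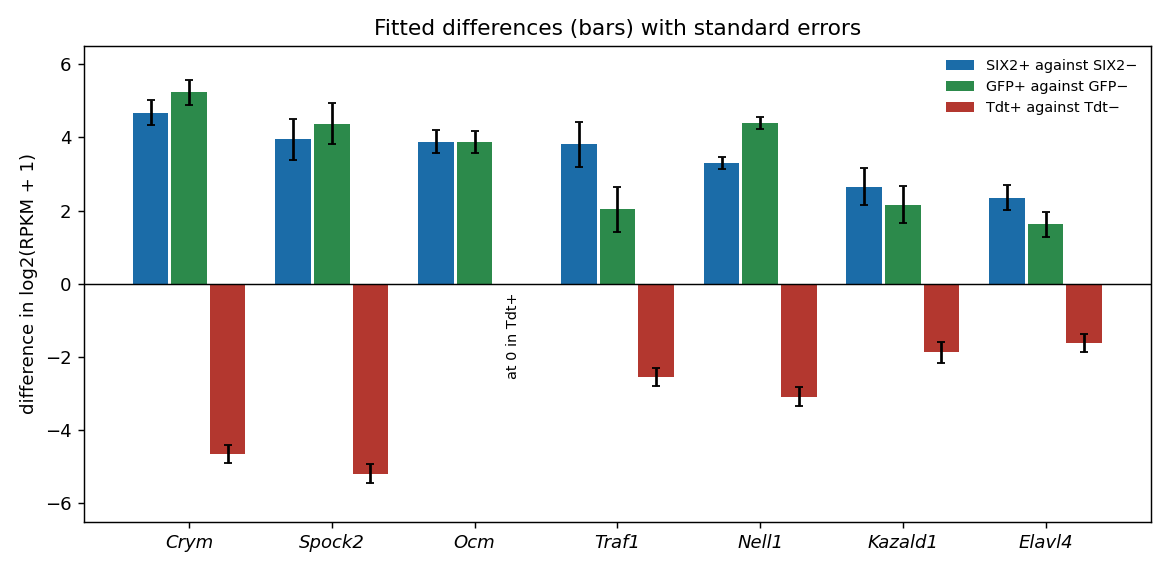
Fitted difference in log2(RPKM + 1) with its standard error (vertical axis) for each gene, first group minus second: SIX2+ against SIX2-, GFP+ against GFP- and, from the separate E14.5 table, Tdt+ against Tdt-. The genes were picked for the differences in both progenitor sorts, and the rule does not name the Tdt sort. The Tdt bars run from -5.18 for Spock2 to -1.62 for Elavl4, with none drawn for Ocm, which is at 0 in Tdt+.

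Close relatives of Nell1, Ocm, Spock2, Elavl4 and Traf1 were also measured. Nell2, the other NELL gene, ran opposite to Nell1, at 4.63 ± 0.96 RPKM in SIX2+ and 12.6 ± 4.0 RPKM in SIX2- libraries (-1.25 ± 0.28 log2, limma adjusted p = 0.00377). It measured 0.849 ± 0.169 RPKM in GFP+ and 15.6 ± 2.8 RPKM in GFP- libraries (SD, n = 3 each; -3.15 ± 0.28 log2, limma adjusted p = 7.77e-07). Where the GFP contrast less the SIX2 contrast was fitted, 0.141% of all genes were called (0.0938% higher, 0.0469% lower), and Nell2 was at -1.90 ± 0.39 log2 (limma adjusted p = 0.0933), a call gained with the replicate block and without NZC 2 or SIX2- 3. Pvalb, parvalbumin itself, reached at most 0.0484 RPKM in SIX2+ and 0.0548 RPKM in SIX2- libraries and was listed at 0 in all others. The other testicans, Spock1 and Spock3, averaged at most 1.32 RPKM in any group. Elavl1, the ubiquitous member of the ELAVL family, averaged 24.9 ± 5.0 RPKM in SIX2+ and 25.04 ± 3.6 RPKM in SIX2- libraries. Traf2, another TRAF adaptor, averaged 8.60 ± 0.38 RPKM in SIX2+ and 8.79 ± 0.76 RPKM in SIX2- libraries. Not all relatives were as even. Traf4 was called lower in SIX2+, at 31.2 ± 5.1 RPKM against 44.1 ± 6.6 RPKM in SIX2- libraries (SD, n = 3 each). In GFP+, Traf3 was called higher, and Traf5 and Elavl2 were called lower.

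The pathway partners of the 7 genes were read from lists chosen with earlier results of these data known. Over all genes, 24.2% were called between SIX2+ and SIX2- (8.36% higher, 15.9% lower) and 32.9% between GFP+ and GFP- (15.9% higher, 17.0% lower). The splits were 1070 higher and 2031 lower in SIX2+, or 1572 and 1572 with quantile normalisation, and 2033 higher and 2176 lower in GFP+, or 1313 and 2244 after rescaling to TPM. The number higher in SIX2+ was 1729 without NZC 2, 665 without SIX2- 1 and 1634 with only the groups compared. In most of the other cell type lists, the markers called were mainly lower in the positive fractions. Neural and glial markers had 2 higher and 0 lower in SIX2+, and 2 higher and 1 lower in GFP+. Erythroid markers had 0 called in SIX2+ and 8 lower in GFP+. Early differentiating nephron markers had 2 higher and 9 lower in SIX2+, and 4 higher and 4 lower in GFP+. The ureteric marker Hoxb7 was higher in both sorts. In SIX2+, 15 of 16 stromal, 9 of 10 mural, 11 of 12 endothelial, 12 of 12 leukocyte and 8 of 10 ureteric markers tested were called lower, and in GFP+, 14, 10, 9, 12 and 7 of them in that order. The stromal sum was 274 to 337 RPKM in SIX2+ against 1854 to 2793 RPKM in SIX2- libraries, and 442 to 498 RPKM in GFP+ against 3425 to 4361 RPKM in GFP- libraries. The part of these cells in the calls of the lists below was not tested. The median difference of all genes was 0.04 log2 in the SIX2 sort, 0.09 in the GFP sort and -0.04 in the Tdt sort. With no filter on low values, all 11 genes named below as called in Tdt+ against Tdt- lose that call. With quantile normalisation Calb1, Rbfox1 and Traf4 do, and with TPM Celf4, Rxrg and Traf4 do. Of the 11, Calb1, Rbfox1 and Tnfrsf19 were under 1 RPKM in both Tdt+ libraries. They passed the filter through the Tdt- libraries alone and had to be lower in Tdt+, so their p-values there are not taken as support.

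For Crym, the thyroid hormone list had 15 tested genes. In SIX2+ against SIX2-, limma called 0 higher (1 at an unadjusted p under 0.05) and 6 lower (median -0.25 log2), and in GFP+ against GFP-, 1 was higher and 6 lower (median -0.23). Rxra, a nuclear receptor partner, fell by 1.25 log2 in SIX2+ and by 1.51 in GFP+, and Slc7a8, an amino acid transporter that also carries thyroid hormone, fell by 1.16 in SIX2+ and by 1.46 in GFP+. In Tdt+ against Tdt-, 1 was higher, Rxrg, a call lost without Tdt- 1 or Tdt- 2, and limma called 0 lower (1 at an unadjusted p under 0.05; median -0.28).

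For Ocm, 18 genes of other EF-hand proteins were tested. In SIX2+, limma called 0 higher (1 at an unadjusted p under 0.05) and 13 lower (median -1.12 log2), and in GFP+, 1 was higher and 11 lower (median -0.92). S100a6 averaged 0.673 ± 0.165 RPKM in SIX2+ and 46.6 ± 12.9 RPKM in SIX2- libraries (-4.80 ± 0.32 log2, limma adjusted p = 8.53e-08). It fell by 4.87 in GFP+, and S100a10, an annexin partner, fell by 2.997 in SIX2+ and by 3.47 in GFP+. Calb1, calbindin, a calcium buffer of distal tubule and collecting duct, fell by 2.57 in SIX2+, and Ncald, neurocalcin, fell by 2.63 in GFP+. In Tdt+, 14 genes were tested, and the single call was Calb1, lower by -1.45 log2 (limma adjusted p = 0.0149; median of the list 0.23).

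For Spock2, 6 genes of the SPARC family were tested, and limma called 4 lower and 0 higher in SIX2+ (median -1.60 log2) and in GFP+ (median -1.88), with 0 higher also at an unadjusted p under 0.05. Smoc2, a matricellular protein of stroma, averaged 0.442 ± 0.085 RPKM in SIX2+ and 34.4 ± 14.9 RPKM in SIX2- libraries (-4.54 ± 0.29 log2, limma adjusted p = 5.90e-08). Sparcl1 fell by 4.53 and Fstl1, a follistatin-like secreted protein, by 2.06 in SIX2+. In GFP+ they fell by 4.44 and by 2.16, in that order. In Tdt+, Smoc2 rose by 1.49 ± 0.24 log2 (limma adjusted p = 0.00939), to 61.8 ± 6.6 RPKM in Tdt+ against 21.5 ± 4.9 RPKM in Tdt- libraries (SD, n = 2 each), while Spock2 was lower there; the median of the list was 0.18. The call of Smoc2 is lost without Tdt- 1.

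For Nell1, 6 relatives and partners were tested. In both SIX2+ and GFP+, 1 was higher and 3 were lower (medians -0.45 and -0.41 log2). The higher gene was Robo2, a SLIT receptor that limits budding of the ureter. It averaged 48.7 ± 6.1 RPKM in SIX2+ and 8.16 ± 0.96 RPKM in SIX2- libraries (+2.44 ± 0.22 log2, limma adjusted p = 1.76e-06), and it rose by 1.89 in GFP+. In Tdt+ it was lower, at 14.47 ± 4.4 RPKM in Tdt+ against 47.8 ± 2.5 RPKM in Tdt- libraries (-1.69 ± 0.26 log2, limma adjusted p = 0.00707; median of the list 0.05). Runx2, the bone regulator that controls Nell1 in osteoblasts, averaged 0.0243 ± 0.0023 RPKM in SIX2+ and 2.04 ± 0.36 RPKM in SIX2- libraries (-1.56 ± 0.15 log2, limma adjusted p = 3.46e-06).

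For Kazald1, 16 genes of the IGF system were tested. In SIX2+, 1 was higher and 9 lower (median -1.12 log2), and in GFP+, 1 was higher and 8 lower (median -0.63). Igfbp7 averaged 2.47 ± 0.33 RPKM in SIX2+ and 138 ± 23 RPKM in SIX2- libraries (-5.31 ± 0.28 log2, limma adjusted p = 9.09e-09), and it fell by 5.21 in GFP+. Igfbp3 fell by 4.61 in both sorts, and Igfbp6 fell by 2.87 in SIX2+ and by 3.52 in GFP+. The gene higher in both was Igfbp2, named here after its value was seen. In Tdt+, Igfbp6 rose by 2.34 ± 0.29 (limma adjusted p = 0.00341) and Igfbp3 by 1.51 ± 0.27 (limma adjusted p = 0.0137), a call lost without Tdt- 1; the median of the list was 0.03.

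For Traf1, 30 genes of TNF receptor and NF-kB signalling were tested. In SIX2+, 2 were higher and 6 lower (median -0.02 log2), and in GFP+, 7 were higher and 7 lower (median 0.26). Cd40, a receptor that signals through TRAFs, averaged 0.4999 ± 0.073 RPKM in SIX2+ and 2.79 ± 0.84 RPKM in SIX2- libraries (-1.31 ± 0.24 log2, limma adjusted p = 0.000983). The TRAF regulators Tank and Tnfaip3 fell by 1.04 and by 0.94 in SIX2+. Among receptors, Tnfrsf19, also called TROY, averaged 13.6 ± 1.3 RPKM in GFP+ and 2.17 ± 0.82 RPKM in GFP- libraries (+2.24 ± 0.34 log2, limma adjusted p = 0.000166), and Tnfrsf12a, the TWEAK receptor, rose by 1.77 in GFP+. In Tdt+, Tnfrsf19 was lower by -2.36 ± 0.26 log2 (limma adjusted p = 0.0021; median of the list -0.17). Traf4 rose by 0.93 ± 0.23 in Tdt+ (limma adjusted p = 0.0494), a call lost without Tdt- 1 or Tdt- 2.

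For Elavl4, 12 genes of other neuronal RNA-binding proteins were tested. In SIX2+, 3 were higher and 2 lower (median 0.10 log2), and in GFP+, 5 were higher and 4 lower (median -0.06). Rbfox1, a splicing regulator, averaged 3.85 ± 1.28 RPKM in SIX2+ and 0.703 ± 0.099 RPKM in SIX2- libraries (+1.48 ± 0.20 log2, limma adjusted p = 8.49e-05), and it rose by 2.12 in GFP+. Msi1, Musashi, a translational regulator of progenitors, rose by 1.33 in SIX2+ and by 1.94 in GFP+, while the splicing regulator Nova1 fell by 0.94 in SIX2+ and Celf4 fell by 1.70 in GFP+. In Tdt+, 10 were tested, with 2 higher and 3 lower (median -0.38). Rbfox1 was lower by -1.40 ± 0.23 (limma adjusted p = 0.0101), Khdrbs3 by -1.64 ± 0.27 (limma adjusted p = 0.0103), a call lost without Tdt- 2, and Celf4 was higher by 1.29 ± 0.27 (limma adjusted p = 0.0241), a call lost without Tdt- 1 or Tdt- 2.

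The members' profiles over the 15 E16.5 libraries were compared by the root mean square difference of log2(RPKM + 1) after each gene was centred on its own mean, as a description of libraries that share sorts and depths. Crym, Spock2, Ocm and Nell1 lay at 0.419 to 0.649 log2 from each other. Kazald1 lay 0.547 from Traf1 and 0.623 from Elavl4, and Elavl4 lay 0.885 from Traf1, while the other pairs ran from 1.02 to 1.57. Seen from Kazald1, Traf1 ranked 15th of 12797 genes, but seen from Elavl4, Kazald1 ranked 255th and Traf1 2600th. Seen from Six2, Spock2 was the nearest of 12797 genes (0.640), Crym the 3rd, Ocm the 5th and Nell1 the 7th. Traf1 ranked 42nd, Kazald1 75th and Elavl4 96th.

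The genes nearest to Crym and to Spock2 began with Eya1, a transcriptional cofactor that acts with SIX2, at 0.494 from Crym and 0.299 from Spock2. Next to Spock2 stood Col2a1, a collagen gene, at 0.489, and Nell1 at 0.588; Ocm and Nell1 followed for Crym. Nearest to Ocm were Nell1, Moxd1 and Osr1, an early kidney transcription factor. Nearest to Nell1 were C2cd4a, Ocm and Gfra1, a GDNF co-receptor. Nearest to Traf1 were Col11a2, Phf19 and AU015791, and nearest to Kazald1 were Phf19, AU015791 and Meox2. Elavl4 had Gas1, E030013I19Rik and 2610028E06Rik as its nearest. Without NZC 2, Eya1 stayed first for Crym and for Spock2 and Col11a2 for Traf1, while Osr1 came first for Ocm and Gas1 ranked 5th for Elavl4.

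The distances were taken over both positive fractions, so the levels of the neighbours of Traf1 and Kazald1 there are a description that the choice itself fixes. Phf19, a Polycomb-associated protein, averaged 38.2 ± 7.7 RPKM in SIX2+ and 12.8 ± 0.7 RPKM in GFP+ libraries (SD, n = 3 each). Meox2, a homeobox factor, averaged 22.2 ± 4.8 RPKM in SIX2+ and 4.90 ± 0.76 RPKM in GFP+ libraries. Col11a2, a collagen gene, averaged 27.9 ± 11.6 RPKM in SIX2+ and 8.91 ± 5.14 RPKM in GFP+ libraries, and AU015791 averaged 12.4 ± 2.0 RPKM in SIX2+ and 3.71 ± 0.70 RPKM in GFP+ libraries. The E14.5 libraries did not enter the distances. Of the 13 neighbours that are not members, 8 passed the filter there through Tdt- libraries alone, and no count of calls is drawn from them. Of the 5 others, Gfra1 fell by 3.26, Osr1 by 2.40, Meox2 by 2.39 and Phf19 by 1.84 on the log2 scale in Tdt+; with no filter, the calls of Osr1, Meox2 and Phf19 are lost (limma adjusted p = 0.101, 0.0523 and 0.0846). Gas1 was not called, at 71.8 ± 33.9 RPKM in Tdt+ and 94.2 ± 7.1 RPKM in Tdt- libraries (SD, n = 2 each; limma adjusted p = 0.454), and was called lower without Tdt+ 1.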

How the data were processed

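Poly(A) libraries were made with a stranded Kapa kit from RNA isolated with the RecoverAll and RNeasy Micro kits, per the labels' protocols, which do not say which library had which. TopHat2, Partek and the build mm10 are listed, with roles not stated, per the submitters' processing notes. The authors deposited a table of 15 E16.5 libraries and a table of 4 E14.5 libraries. Both are titled TPM, but the deposited values behave as RPKM: column sums varied by 8.01% and 13.8% (coefficient of variation), and by 2.70% and 2.91% after weighting by GENCODE M21 exonic length. The design had assumed TPM; the test is the same. The tables were normalised separately, and tests stayed within a table. In each, 27 names turned into dates were left out.

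Log2(RPKM + 1) was tested with limma 3.58.1 (R 4.3.3; eBayes with trend, two-sided), with Benjamini-Hochberg adjustment over all genes with at least 1 RPKM in at least 3 (E16.5) or 2 (E14.5) libraries and a threshold of 0.05. This scale understates changes of low genes. The E16.5 fit held 5 group means (10 residual degrees of freedom) and the E14.5 fit 2 (2 degrees). The procedure was tested on simulated data. There, Tdt+ against Tdt- recovered 0% of genes changed by 1 log2, 47.8% of those changed by 2 and 74.2% of those changed by 3. For a change of 1 log2, SIX2+ against SIX2- recovered 76.1% and GFP+ against GFP- 83.6%. Depth was estimated from low values, of which 37.7% to 49.1% per library were whole reads within 0.05; counts could not be recovered and no count model was used. Deviations of same-numbered libraries correlated for SIX2+ and SIX2- (r = 0.64, 0.28 and 0.68) and for GFP+ and GFP- (0.45, 0.44 and 0.39), so these numbers are taken to pair the samples. The main fit has no term for this pairing. The replicate block used as an alternative ties all 5 groups that share a number, not each pair alone.

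The 7 genes, the 7 pathway lists and the 11 cell type lists were chosen with earlier results of these data known. Named besides the 7 are Six2, Foxd1, from each pathway list up to 3 called genes with the largest difference per comparison, and the 3 nearest profiles of each gene. Markers and close relatives are named where they bear on a member. A result the rule would name is not reported here. Alternatives were pseudocounts of 0.1 and 5, no filter and a minimum of 5, TPM, quantile normalisation, no trend, a replicate block, only the groups compared, and leaving out each library.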

Additional observations from a re-analysis of the deposited data

How the results depend on the processing

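The 7 genes kept the direction of their difference in all 3 sorts under every alternative in which they were tested. In the SIX2 and GFP sorts, the choice of the genes fixes that direction. In the Tdt sort, all but Spock2 passed the filter through the Tdt- libraries alone. They were therefore not tested without Tdt- 1 or Tdt- 2, and Ocm, Kazald1 and Elavl4 not with a minimum of 5 either. With no filter, 4 of the 7 genes and the 11 list genes named there lost their call in Tdt+ against Tdt-, as given above. Foxd1 and the neighbours Osr1, Meox2 and Phf19 also lost theirs. Traf4 also lost its call with either other pseudocount, a minimum of 5 and no trend. The cause was not tested. Log2 differences moved mainly with the pseudocount: Ocm in SIX2+ against SIX2- ran from 2.15 to 5.71 and Traf1 in GFP+ against GFP- from 0.89 to 3.18. The total counts of genes called in the SIX2 and the GFP sort stayed within 1.5 times under every alternative, but not each direction: beside the shifts given above, a minimum of 5 left 1267 lower in SIX2+ (2031 before) and 1407 lower in GFP+ (2176 before). The count in Tdt+ against Tdt-, 1043, was 229 with no filter, 522 with a minimum of 5 and 2307 with a replicate block, and ran from 276 to 3378 on leaving out a library, with 1 library against 2. On leaving out a library there, Gas1 ran from -0.96 log2 without Tdt+ 1 (limma adjusted p = 0.00931) to 0.024 without Tdt+ 2 (limma adjusted p = 0.96). The E14.5 numbers are shared by only 2 pairs (r = 0.40 and 0.40), so they are not taken to pair the samples. TPM moved the median difference there to -0.26 from -0.04 log2. For genes whose difference differed between the GFP and the SIX2 sort (GFP contrast minus SIX2 contrast), 18 genes were called (0.141%). The count was 38 with a pseudocount of 5, 11 with no filter, 8 with TPM, 82 with the replicate block and 140 with only the groups compared, and 1 to 88 on leaving out a library. With the block, Nell2 and Khdrbs3 gained a call there. The block changed no other call among the named genes of the SIX2 and GFP sorts. Without NZC 2, an alternative for the profiles chosen after seeing the data, the 3 nearest genes of each member ranked 1 to 6. The E14.5 test has 2 residual degrees of freedom, and its Tdt+ libraries hold roughly 9.43 and 8.40 M reads.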
